A study of Mus musculus and Homo sapiens with 107 samples.

Results

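The genes described here are 10 that are commonly used to place a cell between an epithelial and a mesenchymal state. They were taken by their Ensembl identifiers from the gene count tables of 2 human lung cancer lines, and all 10 were present in both tables, which hold 24353 rows for A549 and 24019 for H1299. The members are CDH1 (ENSG00000039068), EPCAM (ENSG00000119888), CDH2 (ENSG00000170558), VIM (ENSG00000026025), FN1 (ENSG00000115414), ZEB1 (ENSG00000148516), ZEB2 (ENSG00000169554), SNAI1 (ENSG00000124216), SNAI2 (ENSG00000019549) and TWIST1 (ENSG00000122691). A549 and H1299 are established non-small-cell lung cancer lines whose genotype is labelled wt, and both are known from other work to lack functional BRG1 (SMARCA4). Each was treated for 12 h with 5 µM BRM014, an allosteric inhibitor of the SWI/SNF ATPases BRM and BRG1, or with the solvent DMSO (0.05% by the titles, 0.5% by the treatment field), giving 4 groups of 3 RNA-seq libraries. The question of the design was how these lines respond to loss of SWI/SNF activity. Whether the 3 libraries of a group came from separate cultures is not labelled, so the spread between them may be technical.

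Epithelial cells hold together through E-cadherin, the product of CDH1, and carry the surface adhesion protein EpCAM. In an epithelial to mesenchymal transition, E-cadherin is replaced by N-cadherin (CDH2), the vimentin filament network (VIM) expands, and fibronectin (FN1) is laid down in the matrix. Repressors of the ZEB, SNAIL and TWIST families drive the transition: ZEB1, ZEB2, SNAI1 and SNAI2 are zinc finger proteins that bind E-box motifs and silence CDH1, and TWIST1 is a basic helix-loop-helix factor. Many carcinoma lines hold epithelial and mesenchymal genes side by side.

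Library totals ranged from 40684360 to 50177678 counts in A549 and from 28412113 to 41780029 in H1299. The A549 table carries the same header on 2 of its 3 BRM014 columns, called library a and library b here. Deviations from the group means were shared between some A549 libraries of different treatments, with an r of 0.69 between DMSO replicate 1 and library a, of 0.48 between the replicates 3, and of -0.63 between DMSO replicate 1 and BRM014 replicate 3. In H1299 such correlations lay between -0.09 and 0.09. The calls made for A549 members below were the same 6 when any single library was left out, though that of ZEB1 only narrowly without DMSO replicate 2 or library b.

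Levels are given as CPM, counts per 1000000 of the library total after scaling with TMM factors. To set the lines side by side, all 12 libraries were scaled jointly. On that scale and in DMSO, A549 expressed the epithelial pair and H1299 nearly lacked it. CDH1 stood at 38.3 ± 1.87 CPM in A549 (SD, n = 3), while H1299 had 8 counts over 3 libraries: 4 in replicate 1, 0 in replicate 2 and 4 in replicate 3. For replicate 2, a count of 0 allows up to 0.0893 CPM, the level of 3 counts. EPCAM stood at 10.7 ± 0.151 CPM in A549, and H1299 had 17 counts over 3 libraries (6, 5 and 6). Per total count, the A549 level was 431 times that of H1299 for CDH1 (95% exact interval 219 to 1000) and 56.8 times for EPCAM (35.3 to 97.8); the intervals cover counting error only.

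The mesenchymal effectors did not all point the same way between the lines. VIM was higher in H1299, at 2610 ± 71.5 against 1489 ± 24.5 CPM in DMSO (SD, n = 3). CDH2 was lower in H1299, at 41.6 ± 1.49 against 119 ± 4.76 CPM. FN1 was lower as well, at 109.7 ± 6.91 against 591.5 ± 16.3 CPM. A549 in DMSO thus held CDH1 and CDH2 transcripts together, with more CDH2 and FN1 than H1299 and less VIM. In edgeR's quasi-likelihood test, the log2 difference of H1299 minus A549 was 0.81 for VIM (standard error 0.03, adjusted p = 1.91e-18), -1.51 for CDH2 (0.05, adjusted p = 2.15e-19) and -2.43 for FN1 (0.04, adjusted p = 1.17e-24).

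The repressors split by gene. ZEB1, ZEB2 and TWIST1 were higher in H1299, and SNAI1 and SNAI2 were higher in A549. ZEB1 had 59.9 ± 0.343 CPM in H1299 against 38.4 ± 2.38 in A549 (SD, n = 3; log2 difference 0.64, adjusted p = 9.35e-11 in edgeR). ZEB2 had 26.3 ± 1.44 against 7.43 ± 0.376 CPM (1.82, adjusted p = 4.53e-17). TWIST1, at 6.99 ± 0.654 against 1.31 ± 0.114 CPM, differed by 2.42 on the log2 scale (adjusted p = 2.46e-15). The A549 level of SNAI1 was 12.5 ± 0.882 CPM and the H1299 level 1.68 ± 0.18 CPM, a log2 difference of -2.89 (adjusted p = 6.46e-18). SNAI2 was low in both lines, with 132 counts over 3 DMSO libraries in A549 and 13 in H1299. The ratio per total was 7.4 (95% exact interval 4.18 to 14.3, for counting error only).

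Each of the 10 genes passed the threshold of an adjusted p below 0.05 between the lines in DMSO, where 85.7% of the 16466 genes tested did. CDH1, EPCAM and SNAI2 entered this test only through their A549 counts, so for them a difference was built into the filter. When TMM factors were replaced by library totals, the median log2 difference of all genes moved by 0.22 towards H1299, and the 10 directions were kept. Culture media differed as well, and amplification took 9 PCR cycles for A549 and 8 for H1299; neither can be told apart from the line itself.

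**Figure D1:**
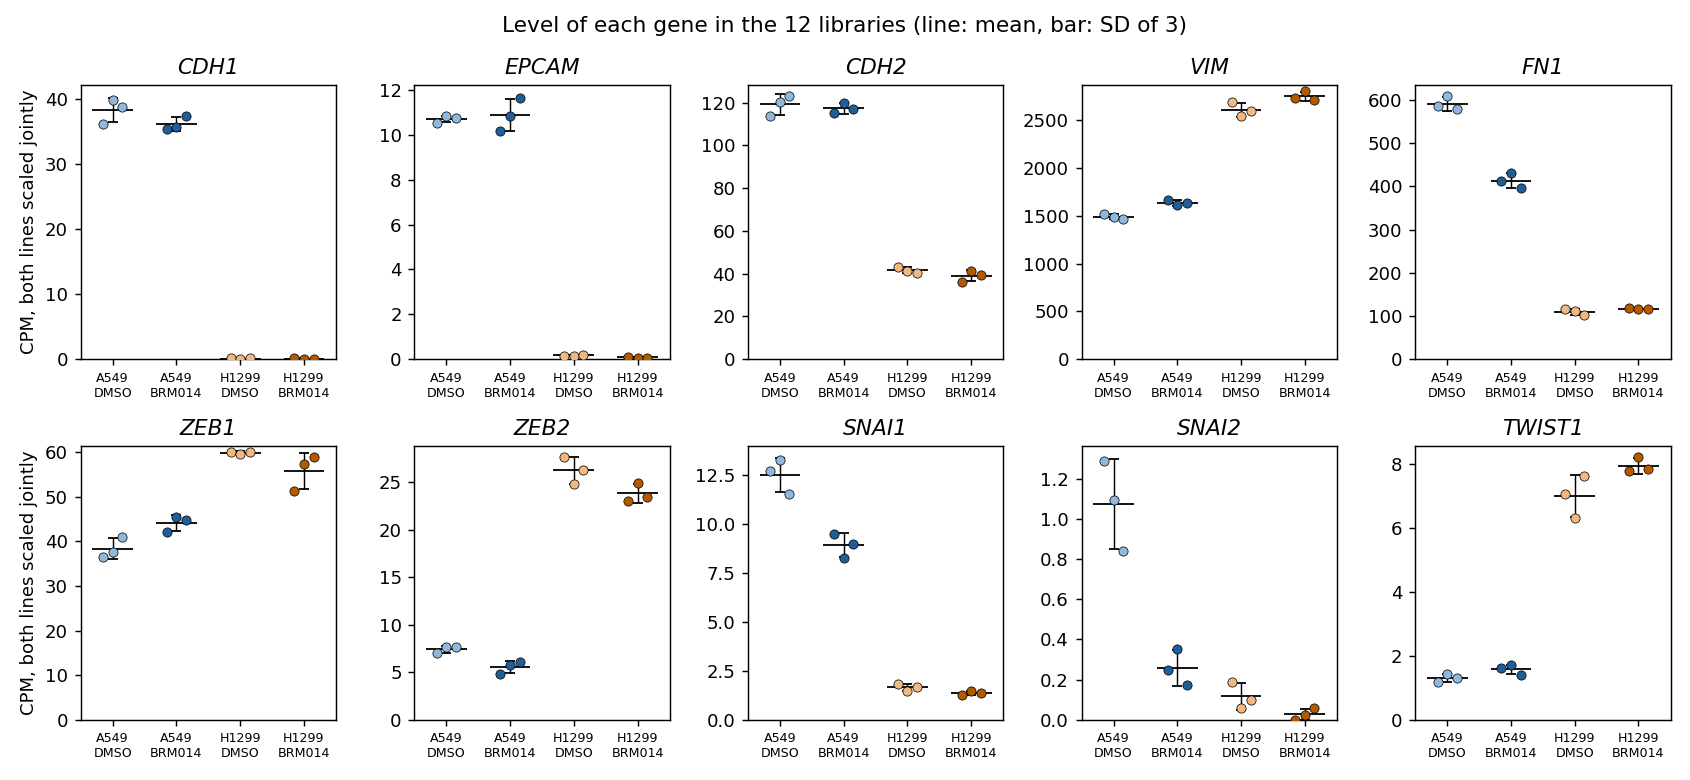
Level of each gene in CPM, with all 12 libraries scaled jointly, for the 4 groups on the x axis; points are libraries, lines are group means and bars are the SD of 3 libraries, and each panel has its own y axis from 0. CDH1 and EPCAM lie near 0 in H1299, FN1, SNAI1 and SNAI2 lie below their DMSO level in the A549 libraries given BRM014, and VIM is higher in H1299 than in A549.

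When the 4 groups were put in order of mean level, the treated and control groups of a line were neighbours for each of the 10 genes, as the plot of levels by group shows. The 4 groups of VIM did not overlap, in the order A549 DMSO, A549 BRM014, H1299 DMSO and H1299 BRM014. For SNAI1 they did not overlap either, in the order H1299 BRM014, H1299 DMSO, A549 BRM014 and A549 DMSO. ZEB1 ran from A549 DMSO through A549 BRM014 and H1299 BRM014 to H1299 DMSO, again with no overlap. Treated and control libraries of a line overlapped on the joint scale for CDH1 and CDH2 in both lines, for EPCAM and TWIST1 in A549, and for FN1 and ZEB2 in H1299. SNAI2 in A549 given BRM014 (0.258 ± 0.0908 CPM) overlapped with H1299 in DMSO (0.116 ± 0.0666 CPM).

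With BRM014 in A549, FN1, ZEB2, SNAI1 and SNAI2 fell and VIM and ZEB1 rose, while CDH1, EPCAM, CDH2 and TWIST1 did not pass the threshold. The fall of SNAI2 was 4.03-fold, and the other changes that passed were between 1.12-fold and 1.41-fold. Of the 10 members, 4 fell, where 19.4% of all 15188 genes tested did, and 2 rose, where 17.7% did; in either direction it was 6 of 10 against 37%. From here on, each line is scaled alone. Treated and control libraries did not overlap for 7 of the 10 members, those 6 and TWIST1, against 48.2% of all genes tested.

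Neither member of the epithelial pair passed the threshold in A549. CDH1 had 33.5, 36.5 and 35.5 CPM in DMSO replicates 1, 2 and 3, and 33.1, 33.1 and 35 CPM in library a, library b and replicate 3 with BRM014. The groups overlapped, and the log2 fold change of -0.06 had a 95% interval of -0.18 to 0.06 (adjusted p = 0.419 in edgeR). EPCAM had 9.76, 9.92 and 9.83 CPM in DMSO and 9.54, 10.03 and 10.9 CPM with BRM014. Its log2 fold change was 0.05 (interval -0.11 to 0.21, adjusted p = 0.652).

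Among the mesenchymal effectors of A549, VIM rose, FN1 fell and CDH2 did not pass the threshold. CDH2 had 105.3, 110.1 and 112.6 CPM in DMSO and 107.7, 110.9 and 109.5 CPM with BRM014, with a log2 fold change of 0.00 (interval -0.09 to 0.09, adjusted p = 0.998). VIM, which encodes the intermediate filament of mesenchymal cells, had 1400, 1362 and 1339 CPM in DMSO and 1560, 1489 and 1527 CPM with BRM014. Every treated library was above every control library, and the log2 fold change was 0.16 (standard error 0.03, adjusted p = 0.000972). FN1 had 542, 557.8 and 528.9 CPM in DMSO and 386.7, 399.3 and 370.5 CPM with BRM014. The treated libraries were all below the control libraries, a change of -29% (log2 fold change -0.49, standard error 0.04, adjusted p = 6.55e-07).

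The ZEB paralogs moved apart in A549. ZEB1 went from 33.8, 34.4 and 37.6 CPM in DMSO to 39.5, 42 and 41.9 CPM with BRM014, a log2 fold change of 0.22 (standard error 0.06, adjusted p = 0.00911 in edgeR). ZEB2 went from 6.47, 7.02 and 6.96 to 4.52, 5.37 and 5.64 CPM, a log2 fold change of -0.40 (standard error 0.10, adjusted p = 0.00737). Neither pair of groups overlapped. ZEB1 only just passed without DMSO replicate 2 (adjusted p = 0.0491 in edgeR) and without library b (0.0493). Both calls were lost when libraries a and b were left out together, which leaves a single treated library (adjusted p = 0.06 for ZEB1 and 0.105 for ZEB2); the log2 fold changes were then 0.22 and -0.30.

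Both SNAIL genes fell in A549. SNAI1 had 11.7, 12.2 and 10.6 CPM in DMSO and 8.9, 7.67 and 8.41 CPM with BRM014, with no overlap and a log2 fold change of -0.46 (standard error 0.08, adjusted p = 0.000948 in edgeR). SNAI2 had 54, 40 and 38 counts in the DMSO libraries, or 1.19, 1 and 0.769 CPM. With BRM014 it had 10, 15 and 7 counts in library a, library b and replicate 3, or 0.231, 0.328 and 0.163 CPM. Its log2 fold change was -2.01 (standard error 0.30, adjusted p = 0.000229). The ratio of summed counts per total, 32 against 132, was 0.256 (95% exact interval 0.168 to 0.379, for counting error only). With BRM014 the SNAI2 counts lay near or below the filter's minimum count of 10. The gene thus entered the test mainly through its DMSO libraries, and the filter leaned towards a fall. SNAI2 was counted thinly in A549, and its SD was 21.5% of the mean in DMSO and 34.5% with BRM014, while for CDH2, VIM and FN1 the SD was 1.46% to 3.74% of the mean.

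TWIST1, also low in A549, had 1.1, 1.3 and 1.19 CPM in DMSO and 1.52, 1.57 and 1.32 CPM with BRM014. The closest libraries of the groups, at 1.3 and 1.32 CPM, nearly touched, and on the joint scale the groups overlapped. Its log2 fold change of 0.30 did not pass the threshold (interval -0.04 to 0.64, adjusted p = 0.155), and it was 0.12 without libraries a and b (adjusted p = 0.779).

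**Figure D2:**
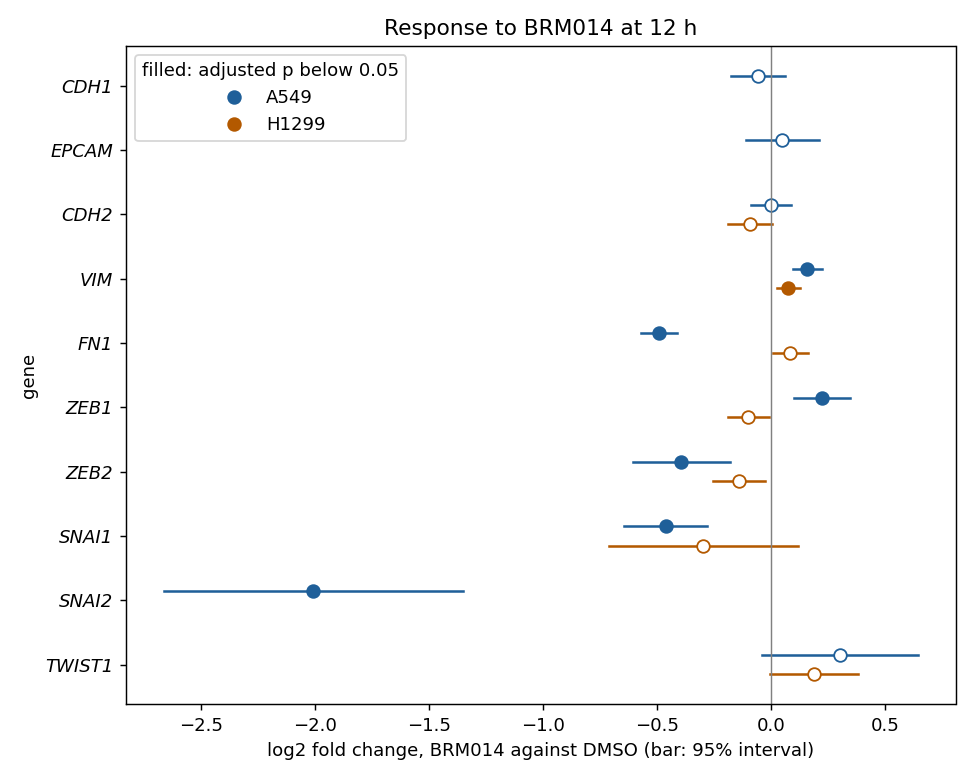
Log2 fold change of each gene with BRM014 against DMSO (x axis) in A549 and H1299, with the 95% interval as a bar; filled points passed an adjusted p below 0.05. SNAI2 has the lowest value, -2.01 in A549, FN1 lies at -0.49 in A549 and 0.08 in H1299, and CDH1, EPCAM and SNAI2 have no H1299 point because their counts were too few to test.

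Of the 7 members that could be tested in H1299, VIM rose and no other passed the threshold. That was 1 of 7 in either direction, where 22% of the 14986 genes tested passed, 9.29% higher and 12.7% lower. Treated and control libraries did not overlap for 5 of the 7, VIM, ZEB1, ZEB2, SNAI1 and TWIST1, against 35.2% of all genes tested. Members that fell numbered 0 in edgeR, DESeq2 and limma-voom. At an unadjusted p below 0.05, 2 members were lower in edgeR (ZEB1 and ZEB2) against 17.3% of all genes tested, 1 in DESeq2 against 14.6% and 2 in limma-voom against 17.4%. At the same level 2 members were higher in each tool, against 14.9% of genes in edgeR, 11.7% in DESeq2 and 14.7% in limma-voom.

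VIM in H1299 had 2872, 2745 and 2794 CPM in DMSO and 2953, 2988 and 2917 CPM in BRM014 replicates 1, 2 and 3. The log2 fold change was 0.07 (standard error 0.03, adjusted p = 0.0291 in edgeR), a rise of 5.31%. This call ended without DMSO replicate 2 (adjusted p = 0.248), without DMSO replicate 3 (0.142), with the replicate number as a block (0.079) and in the joined fit of both lines (0.0817). FN1 had 124.2, 118.7 and 110.4 CPM in DMSO and 127, 123.2 and 124.8 CPM with BRM014. The groups overlapped, and the log2 fold change of 0.08 (interval 0.01 to 0.16) had an adjusted p of 0.11. It passed with library totals (0.12, adjusted p = 0.0202) and without DMSO replicate 1 (0.13, adjusted p = 0.0336), and without DMSO replicate 3 it was 0.04 (adjusted p = 0.56). CDH2 had 46.2, 44.6 and 43.4 CPM in DMSO and 39.1, 44.1 and 42.4 CPM with BRM014, with overlapping groups and a log2 fold change of -0.09 (interval -0.19 to 0.00, adjusted p = 0.173). It was -0.05 without BRM014 replicate 1 (adjusted p = 0.547) and -0.14 without BRM014 replicate 2 (adjusted p = 0.0446).

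Of the repressors in H1299, ZEB1 had 64.2, 64.1 and 64.8 CPM in DMSO and 55.4, 61.2 and 63.3 CPM with BRM014. Replicate 1 was the lowest treated library, and the log2 fold change was -0.10 (adjusted p = 0.0972 in edgeR), -0.05 without BRM014 replicate 1 (adjusted p = 0.471) and -0.14 without BRM014 replicate 3 (adjusted p = 0.0404). ZEB2 had 29.6, 26.7 and 28.3 CPM in DMSO and 24.9, 26.6 and 25.2 CPM with BRM014. Here the groups nearly touched on the H1299 scale and overlapped on the joint scale, and the log2 fold change was -0.14 (adjusted p = 0.0647). It reached -0.18 and passed without DMSO replicate 2 (adjusted p = 0.0381), and it also passed without BRM014 replicate 2 (adjusted p = 0.0306). SNAI1, with 179 counts in DMSO and 155 with BRM014, had a log2 fold change of -0.30 with an interval of -0.71 to 0.12 (adjusted p = 0.335). TWIST1 had 7.54, 6.8 and 8.21 CPM in DMSO and 8.38, 8.77 and 8.42 CPM with BRM014, a log2 fold change of 0.19 (interval -0.01 to 0.38, adjusted p = 0.169), or 0.12 without DMSO replicate 2 (adjusted p = 0.48).

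The remaining 3 members had too few counts for the test in H1299, and their counts with DMSO and BRM014 are given with exact 95% intervals for counting error only. CDH1 had 8 and 5 counts, a ratio per total of 0.599 (0.154 to 2.08). EPCAM had 17 and 8 counts, a ratio of 0.451 (0.168 to 1.1). SNAI2 had 8, 2 and 3 counts in DMSO and 0, 1 and 2 with BRM014, a ratio of 0.221 (0.0404 to 0.805). In edgeR with no filter on low counts none of the 3 passed the threshold (adjusted p = 0.741, 0.45 and 0.231 for CDH1, EPCAM and SNAI2). The count of 0 for SNAI2 in BRM014 replicate 1 allows up to 0.0964 CPM on the H1299 scale.

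FN1 and ZEB1 were the members that passed a test of the difference in response itself (H1299 minus A549, a line by treatment term), 2 of 10 where 19.5% of the 16466 genes tested passed. FN1 fell in A549, and its response was more positive in H1299 by 0.60 on the log2 scale (standard error 0.06, adjusted p = 4.88e-08 in edgeR). ZEB1 rose in A549, and its response in H1299 was more negative, by -0.30 (standard error 0.08, adjusted p = 0.00735). VIM, which passed in each line, had a difference of -0.06 (interval -0.15 to 0.03, adjusted p = 0.35).

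For ZEB2 and SNAI1, which passed in A549 and not in H1299, the difference in response did not pass. The ZEB2 difference was 0.28 (interval 0.04 to 0.51, adjusted p = 0.0934) and that of SNAI1 0.19 (interval -0.19 to 0.56, adjusted p = 0.531). The SNAI2 difference of -0.04 had an interval of -2.29 to 2.21, too wide to compare the lines with so few H1299 counts. EPCAM differed by -1.17 (interval -2.26 to -0.08, adjusted p = 0.149) and CDH1 by -0.65 (interval -2.37 to 1.08, adjusted p = 0.629), again with 17 counts or fewer per H1299 group. The CDH1 difference was -1.39 without H1299 BRM014 replicate 1 and -0.15 without H1299 DMSO replicate 3. Without library a, the ZEB2 difference was 0.18 (adjusted p = 0.274), and without H1299 DMSO replicate 2 that of SNAI1 was 0.11 (adjusted p = 0.769).

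The members' changes were set beside those of all genes tested. The median absolute log2 fold change was 0.26 over the 10 members in A549 and 0.16 over all genes tested, and in H1299 it was 0.10 over the 7 members and 0.10 over all genes. Signed medians were -0.03 and 0.02 in A549 and -0.09 and 0.00 in H1299. SNAI2, which met the count filter mainly through its DMSO libraries, had a larger absolute change in A549 than 98.7% of the genes tested. FN1 exceeded 81.9%, SNAI1 80.7%, ZEB2 76.7%, TWIST1 69.6% and ZEB1 60%, while VIM exceeded 49.3%, CDH1 22.3%, EPCAM 17.6% and CDH2 0.145%. Among the 7 members tested in H1299, the largest absolute change, that of SNAI1, exceeded 82.3% of the genes, and VIM, which passed the threshold, exceeded 41.7%.

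**Figure D3:**
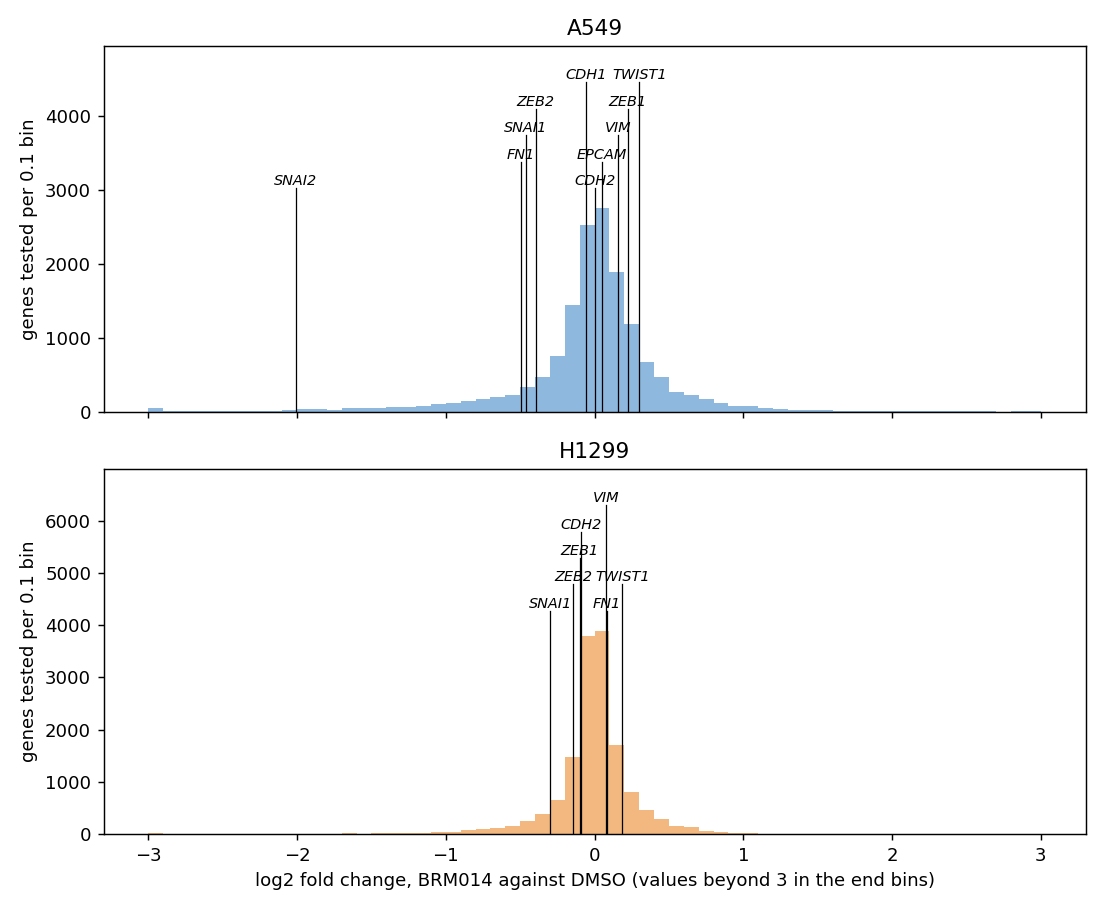
Number of genes tested in each bin of log2 fold change (BRM014 against DMSO), 0.1 wide, in A549 and H1299, with the tested members marked by vertical lines whose heights carry no value. SNAI2 at -2.01 lies in the lower tail in A549, FN1, SNAI1 and ZEB2 lie between -0.49 and -0.40, and the 7 members tested in H1299 lie between -0.30 and 0.19.

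Ratios of genes within a library do not depend on how libraries are scaled. They were computed for CDH2 to CDH1, the cadherin pair, and, chosen after the counts were seen, for FN1 to VIM and ZEB2 to ZEB1. Gene lengths differ, so the level of a ratio is not read. In A549 the log2 ratio of CDH2 to CDH1 was 1.65, 1.59 and 1.67 in DMSO and 1.7, 1.75 and 1.64 with BRM014. Means were 1.64 ± 0.04 and 1.70 ± 0.05 (SD, n = 3), and the groups overlapped. In H1299 this ratio was not averaged, since 1 library had no CDH1 count.

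The A549 ratio of FN1 to VIM moved from -1.33 ± 0.04 to -1.98 ± 0.08 (SD, n = 3), a difference of -0.65 with no overlap. In H1299 it was -4.57 ± 0.07 and -4.56 ± 0.03, a difference of 0.01 with overlap. ZEB2 to ZEB1 moved from -2.37 ± 0.07 to -2.996 ± 0.12 in A549, a difference of -0.63 with no overlap, and from -1.19 ± 0.07 to -1.23 ± 0.09 in H1299, a difference of -0.04 with overlap. These ratios are given as a description, with no test.

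**Figure D4:**
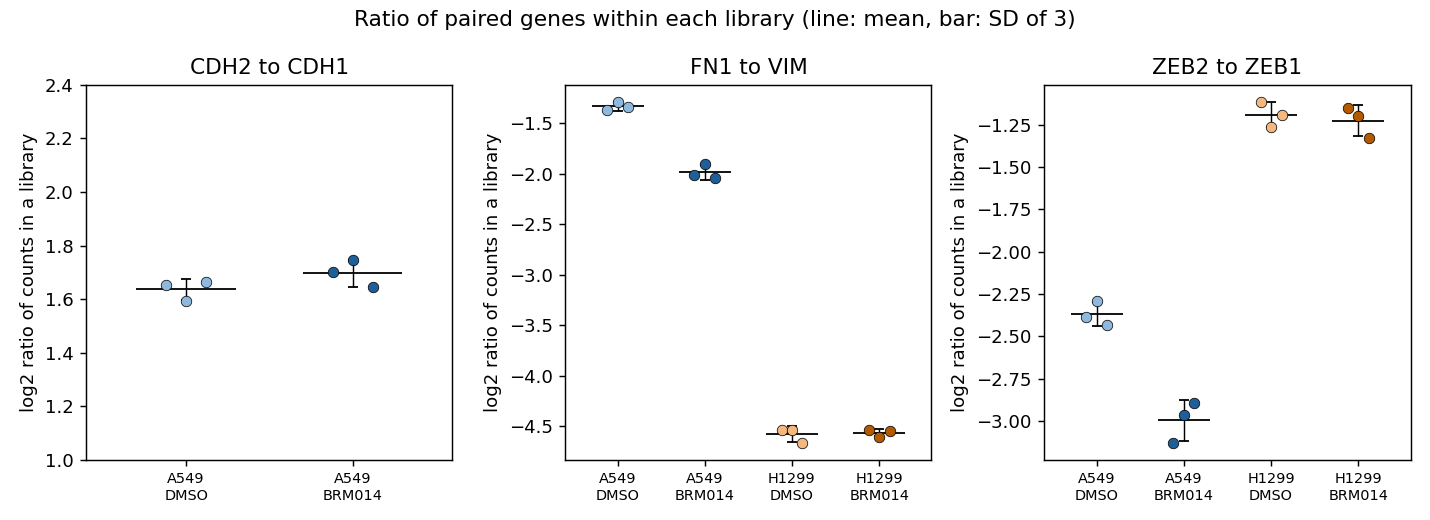
Log2 ratio of the counts of 2 genes in each library (y axis, with a different range in each panel) by line and treatment; points are libraries, lines are means and bars are the SD of 3 libraries. FN1 to VIM and ZEB2 to ZEB1 are lower with BRM014 in A549, by 0.65 and 0.63, and the treated and control libraries overlap in H1299 and for CDH2 to CDH1 in A549.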

How the data were processed

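For either line the authors deposited raw gene counts, not normalized. Per the labels' protocols, rRNA was depleted and the library kit keeps strand. Build hg38 and the tools STAR 2.7.3a, featureCounts, cutadapt 1.14, Bowtie 1.2.2 and DESeq2 are named, without roles, per the submitters' processing notes. The annotation and the strand setting were not given in the sources used here. Whether reads of ZEB1, ZEB2 and VIM were counted apart from those of their antisense neighbours is therefore not known. ERCC spike-ins were added by cell number, per the labels' protocols, and were not used here. Differences are relative to the other RNA of a library, and fewer cells and less RNA per cell cannot be told apart.

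Every gene of a table was fitted in R 4.3.3 with edgeR 4.0.16: filterByExpr (minimum count 10, total 15), TMM factors, two-sided quasi-likelihood test, Benjamini-Hochberg adjustment over all genes tested, threshold 0.05. "Rose", "fell" and "passed" refer to this threshold. Each line was fitted alone; the interaction and the DMSO comparison used a joined fit of 12 libraries over the 22842 shared identifiers. Standard errors are the log2 difference fitted without shrinkage, over the square root of F. The log2 differences reported, on which the intervals are centred, carry edgeR's slight shrinkage. For thinly counted genes such as SNAI2 the intervals therefore mix both estimates. Alternatives were DESeq2 size factors, library totals, DESeq2 1.42.0, limma-voom (limma 3.58.1), other low-count filters, single libraries left out, a replicate block and the joined fit. The procedure was checked on simulated counts of well-counted genes, with the same spread for all genes and no deviations shared between libraries. That check did not cover genes counted as thinly as SNAI2.

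No pair of libraries of a group agreed within sampling noise (chi-square per degree of freedom 2.2 to 11.2, over genes with at least 20 counts). All 10 members are named, by rule. The members and lists were chosen with earlier results of these data known. The name tables used here are for mouse and matched 0 of the identifiers, so the 5 lists of related genes, cell type markers and genes of like pattern are not reported, and no sequence or position is printed. The other 95 of the series' 107 samples were not analysed here.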

Additional observations from a re-analysis of the deposited data

Results flagged for a closer look

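FN1 responded to BRM014 differently in the lines, by the test of the interaction. The log2 difference of its response, H1299 minus A549, was 0.60 (adjusted p = 4.88e-08 in edgeR), with a log2 fold change of -0.49 in A549 and of 0.08 in H1299. All its treated libraries were below all its control libraries in A549, where groups did not overlap for 48.2% of all genes tested. In H1299 its groups overlapped. Over the 19 alternatives the difference ranged from 0.56 to 0.66, with an adjusted p of at most 7.99e-07.

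ZEB1 met the same test with a log2 difference of -0.30 (adjusted p = 0.00735 in edgeR), from 0.22 in A549 and -0.10 in H1299. Over the 19 alternatives it ranged from -0.35 to -0.24, with an adjusted p of at most 0.0289. The cause of either difference was not tested.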

How the results depend on the processing

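The number of members past the threshold in H1299, 1 in the test reported, was 2 with library totals, 0 with the replicate number as a block, 0 in the joined fit of both lines and 0 to 3 when single libraries were left out. The joined fit has 1 spread per gene for both lines and a left-out library means fewer samples; beyond that, the cause was not tested. In A549 the number was 4 to 6 over 14 alternatives (6 in the test reported), for the interaction 2 in each of 19, and between the lines in DMSO 9 to 10 over 18, where the filter of 5 CPM in 3 libraries left 9 to test. Signs turned only for values that did not pass the threshold. In A549 the log2 fold change of CDH2 was 0.05 with library totals, 0.00 with limma-voom, 0.006 with the 5 CPM filter and -0.028 to 0.021 without single libraries, and that of EPCAM was -0.007 to 0.075 without single libraries. For the interaction, SNAI2 was 0.12 with limma-voom and -0.94 to 0.58 without single libraries, and without both unnumbered A549 libraries, added after seeing the data, SNAI2 was 0.53 and TWIST1 0.069. The few H1299 counts limit CDH1, EPCAM and SNAI2 there, with 17 counts or fewer in a group.

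For H1299 replicates 1, 2 and 3, deviations from the group mean correlated between treatments at -0.0857, -0.0255 and 0.0286. The labels do not say whether libraries of the same number share a culture or day, and this was not tested. The replicate block gave 3272 genes past the threshold, against 3296 without it. No paired analysis was possible in A549 or in the joined fits because 2 A549 columns carry no replicate number of their own. The only A549 number known in both groups, 3, gave a correlation of 0.483. A549 BRM014 replicate 3 also correlated with DMSO replicate 2, a different number, at 0.408.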
